A study of Drosophila melanogaster with 4 samples.

Results

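The H3K79me3 regions on the X chromosome of Drosophila melanogaster were the 1005 entries that the series-wide region list named as enriched and placed on X, of 5331 enriched entries in all (18.9%). No entry on X was named depleted in any of the 3 region lists. The material was Oregon-R wild-type larvae of the last larval instar, with no treatment or mutant, and the labels describe 4 libraries, 2 of ChIP with a rabbit polyclonal antibody against H3K79me3 and 2 of input. Region lists were at hand for ChIP replicate 1 (969 X regions), for ChIP replicate 2 (887 X regions) and for the replicate set as a whole; values of the input libraries were not analysed here. Each X region of the series-wide list was set against the X regions of both replicates. Nothing in the labels tells whether the replicates are separate collections, and the spread between them may be technical. Depth is unknown, because region lists carry no read counts. No test across libraries was run: for a contrast measured once in each of 2 libraries, an exact sign-flip permutation test cannot give a two-sided p below 0.5. The values below are descriptions.

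In flies the enzyme grappa, the Dot1 homologue, places H3K79me3 on the globular face of the nucleosome, mostly over the bodies of transcribed genes. The fly X has a transcriptional regime of its own. In males the MSL complex binds transcribed genes on the single X and acetylates histone H4 at lysine 16, which raises their output to match that of females. The labels do not give the sex of the larvae, and whole larvae mix many tissues, so a region present in a few cell types cannot be told apart from a weak one present in all. Coordinates are those of FlyBase release 5, which numbers the X from its distal tip to its centromere. Genes and sequences under the regions were not analysed here.

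Marked chromatin on the X formed many regions of a few kb and a small number of wide ones. In replicate 1 the X regions covered 5.34 Mb, which was 23.8% of the 22.4 Mb arm, and in replicate 2 they covered 5.13 Mb, or 22.9% (mean 23.3 ± 0.690%, SD, n = 2). The median width was 3713 bp in replicate 1 and 3861 bp in replicate 2. The middle 50% of widths ran from 2300 to 6600 bp in replicate 1 and from 2300 to 7043 bp in replicate 2. The series-wide list covered more of the arm, 26.7%, with a median width of 3741 bp and a range of 1001 to 54687 bp.

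Most of the covered length lay in a minority of the regions. Regions of 5 kb or more are here split into classes of 5 to 10 kb, 10 to 20 kb and 20 kb or more. In the series-wide list the 5 to 10 kb class held 230 regions and 26.9% of the covered length. The 10 to 20 kb class held 123 regions and 28.3%. The widest class held 40 regions, or 3.98% of the X regions against 4.48% over all sequences, and 18.5% of the covered length. At the other end, 231 regions under 2 kb held 5.62%. Taken from the widest down, 184 of the 1005 regions made up 50% of the covered length, while 201 of 969 did so in replicate 1 and 179 of 887 in replicate 2. The widest X region below the 20 kb limit measured 19501 bp and the narrowest above it 20247 bp.

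Wider regions carried higher scores on the X. The score is a value without a stated unit that the authors gave each region. It is compared here within a list, and between the replicates only for regions matched one to one. In replicate 1 the median score was 0.542 under 2 kb, 0.916 from 2 to 5 kb, 1.42 from 5 to 10 kb, 1.58 from 10 to 20 kb and 1.85 at 20 kb or more. In replicate 2 the same classes had medians of 0.491, 0.853, 1.25, 1.38 and 1.58. Across X regions, Spearman's rho of width and score was 0.763 in replicate 1 and 0.777 in replicate 2, as a description over regions that share their library. All 40 widest-class regions of the series-wide list scored above its X median of 0.819. The rise did not start at the narrow end: the 91 series-wide X regions narrower than 1301 bp had a median score of 0.401, and the 140 from there to 2 kb had 0.361.

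**Figure D1:**
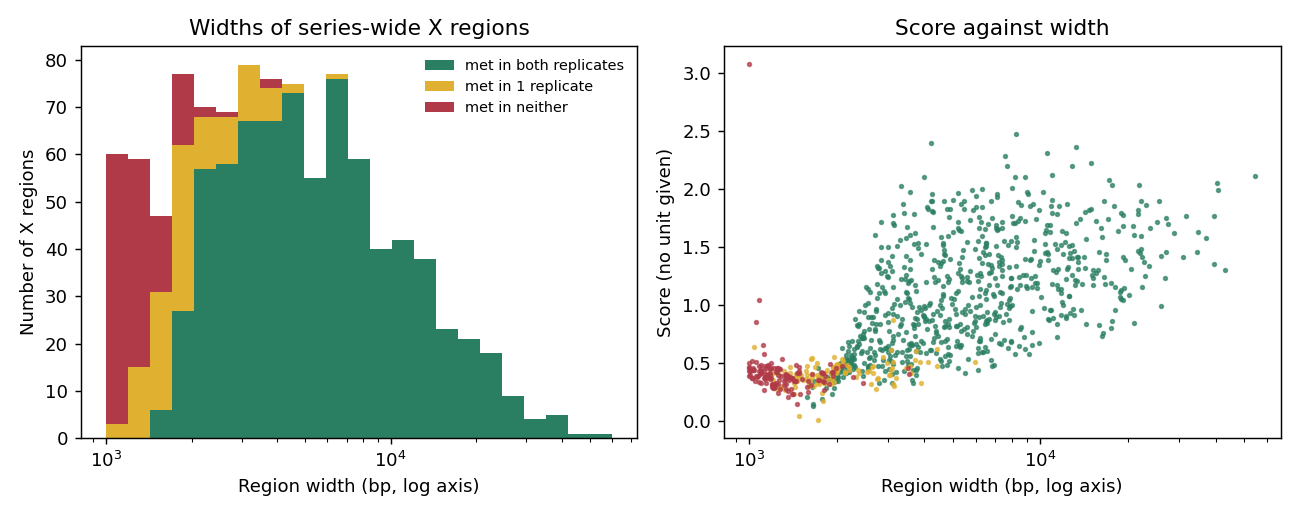
Left, number of series-wide X regions by width (log axis), stacked by whether they met a region in both replicates, in 1 or in neither; right, score (no unit given) against width for the same 1005 regions in the same colours. Regions of 5 kb or more met both replicates in all cases but 1, while most of those under 2 kb met neither; the single point above a score of 3 is 1001 bp wide.

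Of the 1005 X regions, 747 overlapped an enriched X region of both replicates by at least 1 bp. That was 74.3%, against 75.0% of regions over all sequences. The 95% Wilson interval, 71.5 to 76.9%, gives counting error only. It treats regions as independent, though they share the same 2 libraries. Another 83 met replicate 1 alone and 38 met replicate 2 alone. The remaining 137, or 13.6%, met neither, against 12.6% over all sequences. The X shares were thus near the shares over the whole list. With at least 50% of a region required to be covered, 71.8% of X regions met both replicates, in place of 74.3%. The 747 regions met in both replicates held 92.6% of the covered length on X, and the 137 met in neither held 3.09%. The series-wide list is labelled as that of the replicate set, so this overlap is no independent check.

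Whether a region was met followed its width and score. With an overlap of 1 bp enough, a wide region can hardly miss every replicate region. Part of the trend with width was thus set by the criterion. Scores rose with width, so the trend with score is not separate from it. All 123 regions from 10 to 20 kb and all 40 wider ones met both replicates, as did 229 of 230 from 5 to 10 kb and 329 of 381 from 2 to 5 kb. Under 2 kb, 26 of 231 did, and 132 met neither. With the regions ranked by score and divided into 4, both replicates were met by 58 of 252 in the lowest-scoring set, 191 of 251 in the next, and 248 of 251 and 250 of 251 in the upper sets. The splits by width and score were made for X alone, so no share over all sequences stands beside them. The narrowest X region of either replicate measured 1301 bp, and none of the 91 narrower series-wide regions met both replicates, while 81 met neither. Regions met in neither were at most 3557 bp wide, and 3 of the 137 scored above the X median. The outcome was alike along the arm: 74.4% of distal, 73.7% of middle and 74.8% of proximal regions met both replicates, with the arm cut into 3 equal lengths.

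At base level, both replicates shared 81.5% of the X length covered in the series-wide list. A further 11.5% was covered in a single replicate and 6.98% in neither. In the other direction, each of the 969 regions of replicate 1 and the 887 of replicate 2 met a series-wide X region. Most series-wide X regions met exactly 1 region of a replicate, 715 for replicate 1 and 689 for replicate 2. A smaller number met several: 93 met 2 regions of replicate 1, and 22 met 3 to 5. For replicate 2, 84 met 2 and 12 met 3 or 4.

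Edges and score ranks agreed closely where regions corresponded one to one. There were 586 series-wide X regions that met exactly 1 region in each replicate, with no other series-wide region meeting these. Their edges differed between the replicates by a median of 98.5 bp (middle 50% from 35 to 251 bp), and starts lay within 200 bp of each other in 403 of the 586 and ends in 416. Spearman's rho of the replicate scores was 0.958 and that of the widths 0.961, both as descriptions over regions chosen for being called in both libraries. The rho of the scores was alike in the distal (0.956), middle (0.952) and proximal (0.962) parts. The score values themselves were offset: replicate 2 had the lower one in 496 of the 586. Their medians were 1.18 in replicate 1 and 1.02 in replicate 2, with a median difference of -0.160. The series-wide regions were somewhat wider: they exceeded the replicate 1 region in 528 of the 586 and the replicate 2 region in 565.

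**Figure D2:**
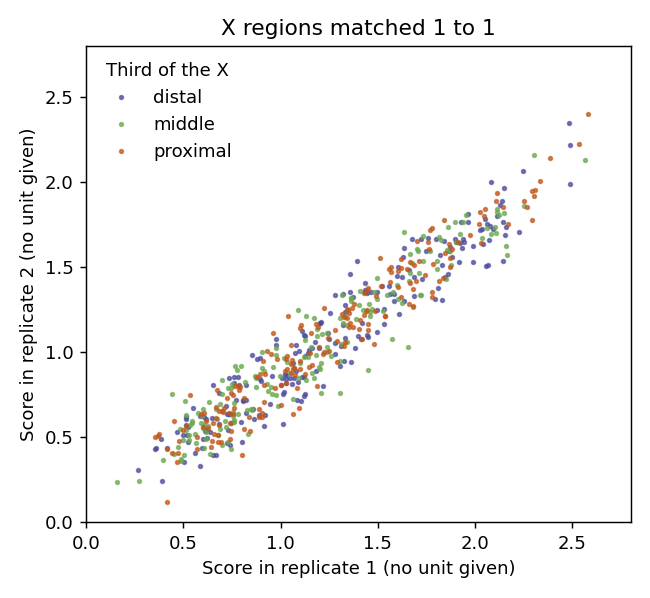
Score in replicate 2 against score in replicate 1 (neither with a stated unit) for the 586 X regions matched one to one, coloured by their part of the arm. The points of all 3 parts lie along a single band, with a rank correlation of 0.958 over all of them.

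Gaps between neighbouring X regions covered a wide range. Replicate 1 had a median gap of 3101 bp, replicate 2 of 3836 bp and the series-wide list of 2625 bp. Gaps under 1 kb numbered 281 of 968 in replicate 1 and 228 of 886 in replicate 2, with 310 of 1004 series-wide. At the other extreme, gaps of 50 kb or more numbered 94 and 101 in the replicates, with 92 series-wide. These few long gaps held most of the sequence outside called regions, 65.9% of it in replicate 1, 68.1% in replicate 2 and 65.7% series-wide. Gaps of 100 kb or longer numbered 47 in each replicate and 42 series-wide.

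Joining X regions less than 5 kb apart gave 396 groups in replicate 1 and 401 in replicate 2, and the series-wide list formed 378. A group held 2 regions in the median, and single regions made up 156 and 178 of them in the replicates and 140 series-wide. The groups spanned 27.6% of the arm in replicate 1 and 26.2% in replicate 2, and 86.5 and 87.3% of that span was itself covered. The group with the most regions in the series-wide list lay on X from 5581398 to 5665702, where 12 regions covered 69.7% of 84.3 kb. It was followed by 11 regions on X from 19491390 to 19562786 and 10 on X from 16459844 to 16551908. Crowded regions were somewhat wider in the median than isolated ones, but not higher in score. In replicate 1, the 41 regions with at least 20 kb free on both sides had a median score of 1.01 and a median width of 3267 bp, while the 77 with under 1 kb free on both sides had 0.959 and 3852 bp. Replicate 2 gave 0.896 and 3809 bp for 46 isolated regions, and 0.821 and 4132 bp for 69 crowded ones.

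**Figure D3:**
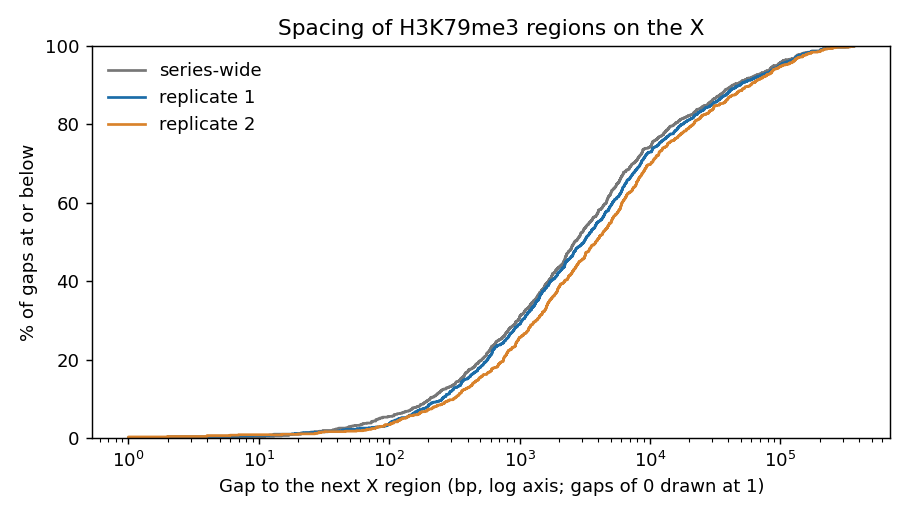
Cumulative share of gaps between neighbouring X regions against gap length (log axis) in the 3 lists. The curves rise most steeply between about 1 kb and 10 kb, with medians of 2625 bp (series-wide), 3101 bp (replicate 1) and 3836 bp (replicate 2), and have a tail above 100 kb.

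Of the 5 longest region-free stretches, 3 lay in the proximal part. The longest ran on X from 20532635 to 20900863 (368 kb), and neither replicate had a region in it. The next ran from 21501783 to 21845851 (344 kb), into which 1 replicate 1 region reached, and the fifth from 19797543 to 20051137 (254 kb), with no replicate region. The third lay in the middle part from 14158539 to 14474195 (316 kb). The fourth ran from 7236161 to 7502127 (266 kb), across the border of the distal and middle parts. Each of these 2 had 1 region of 1 replicate reaching into it. Of the regions that bound the 5 stretches, all but 1 met both replicates, and that one, at 14157284 to 14158538, met neither.

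The most isolated region of each part, by the sum of the gaps on its sides, was met in both replicates. In the middle part it lay on X from 14474196 to 14477110, with 316 kb free before it and 225 kb after it. Its score in the series-wide list was low, 0.352, and replicates 1 and 2 covered 67.0 and 51.0% of it. In the proximal part it lay from 20528368 to 20532634, with a score of 0.873, 132 kb free before it and 368 kb after it. In the distal part it lay from 7229712 to 7236160, with a score of 0.835, 7.84 kb before it and 266 kb after it. Close to both ends of the arm regions were present: the first began 23.4 kb from the distal end and the last ended 5.90 kb from the proximal end of the sequence, and both were met in both replicates.

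Along the arm the mark was not evenly spread, and both replicates showed the same profile. In 22 blocks of 1 Mb the mean of the replicates ran from 10.3 to 40.9% covered, with a median of 23.0%, while the replicates differed by a median of 0.828 percentage points and at most 3.09. Replicate 2 was lower in 21 of the 22 blocks. The densest block was on X from 1000001 to 2000000 (42.4% in replicate 1 and 39.3% in replicate 2). Next came 11000001 to 12000000 (36.6 and 35.8%) and 16000001 to 17000000 (31.3 and 31.2%). The block from 6000001 to 7000000 (31.9 and 30.5%) came close to the latter and was above it in replicate 1. The sparsest were 20000001 to 21000000 (10.7 and 9.92%), 21000001 to 22000000 (11.3 and 10.5%) and 14000001 to 15000000 (11.7 and 11.1%). The densest and sparsest blocks lay much further apart than the replicates did. The replicate difference was 3.09 percentage points in the densest block and 0.794 in the sparsest. The last 0.423 Mb, short of a full block, had 3.95% covered in replicate 1 and 4.66% in replicate 2.

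**Figure D4:**
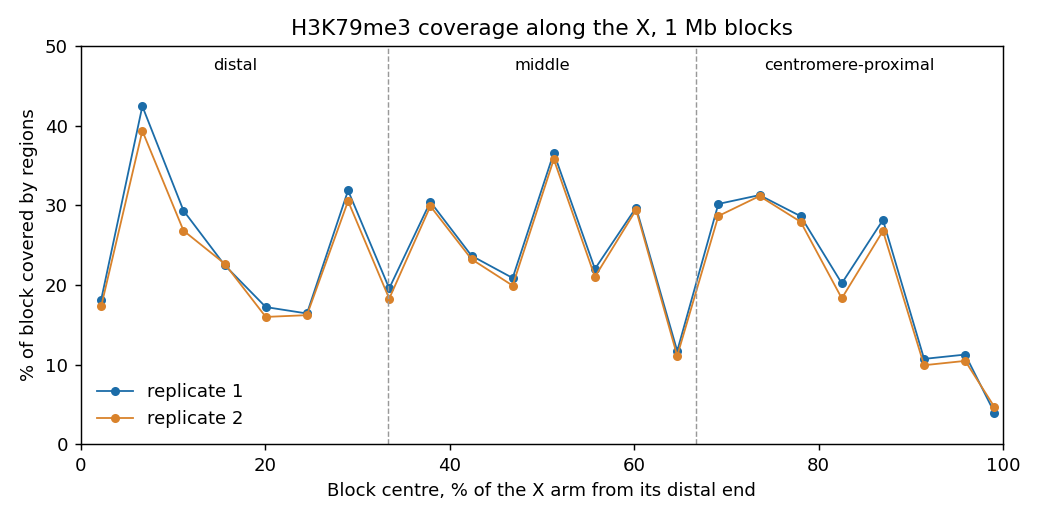
Percent of each 1 Mb block of the X covered by regions in replicate 1 and replicate 2, against the position of the block centre along the arm from its distal end; dashed lines part the 3 equal lengths. The replicates follow each other from the peak of 42.4 and 39.3% near the distal end to the last point at 3.95 and 4.66%.

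By equal lengths of 7.47 Mb, the proximal part was covered least and the middle part most in both replicates. The distal part had 24.5% in replicate 1 and 23.2% in replicate 2 (mean 23.9 ± 0.898%, SD, n = 2, as for the other parts). The middle part had 25.1 and 24.4% (24.7 ± 0.519%). The proximal part had 21.9 and 21.0% (21.4 ± 0.653%). Proximal minus the mean of the other parts was -2.90 percentage points in replicate 1 and -2.82 in replicate 2. Distal and middle differed by about as much as the replicates did, while the proximal value lay below both in each replicate.

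Region numbers differed less, in the same order in each replicate but not in the series-wide list. That list had 45.5 regions per Mb in the distal, 44.8 in the middle and 44.2 in the proximal part. The distal part had 42.5 regions per Mb in replicate 1 and 39.3 in replicate 2, the middle part 44.7 and 40.5, and the proximal part 42.4 and 38.8. The proximal part also had fewer wide regions. Regions of 20 kb or more numbered 11 and 11 in the distal part, 12 and 11 in the middle part, and 4 and 5 in the proximal part. In the series-wide list they numbered 16, 16 and 8.

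The median score was highest in the distal part, while the highest scores were not gathered there at every depth of the ranking. The distal median was 1.11 in replicate 1 and 1.02 in replicate 2. The middle part had 0.980 and 0.944, and the proximal part 1.03 and 0.947. Of the 100 highest X scores, 44 in replicate 1 and 40 in replicate 2 lay in the distal part, 31 and 32 in the middle part, and 25 and 28 in the proximal part. Of the 50 highest, 17 and 16 lay in the distal part, 17 and 16 in the middle part, and 16 and 18 in the proximal part, close to an even spread. The distal part also had the highest median in the series-wide list (0.839, against 0.810 in the middle and 0.784 in the proximal part).

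The proximal part fell into 2 unlike stretches, in a division at 20 Mb that was made after the profile was seen. Beyond 20 Mb, the 2.42 Mb nearest the centromere were covered to 9.76% in replicate 1 and 9.23% in replicate 2, with 22.7 and 19.0 regions per Mb. From 14948552 to 20000000 the proximal part was covered to 27.7 and 26.6%, with 51.9 and 48.3 regions per Mb. That was above the distal and middle parts in both replicates, so that without the terminal stretch the difference of -2.86 percentage points (mean of the replicates) became 2.87. Wide regions were still few there: 4 in each replicate over 5.05 Mb, against 11 and 11 over the 7.47 Mb of the distal part. In the terminal stretch the regions were fewer but not lower in score within the replicates. Its median score was 1.05 in replicate 1 and 0.977 in replicate 2, against 1.02 and 0.945 in the rest of the proximal part; in the series-wide list it was lower, 0.701 against 0.802. Gaps of 100 kb or more numbered 8 in the terminal stretch in each replicate, against 8 and 7 in the longer rest of the proximal part.

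Of the 10 highest-scoring X regions, all but 1 had a high score in both replicates as well. The exception was the highest, 1001 bp on X from 2965030 to 2966030 with a score of 3.08, which met no region in either replicate. It stood alone, with 97.0 kb free before it and 62.5 kb after it. The region from 15212672 to 15220954 (8.28 kb, 2.47 in the series-wide list) scored 2.58 in replicate 1 and 2.40 in replicate 2, where it ranked 3 and 1 on the X. The region from 6634854 to 6639062 (4.21 kb, 2.40) ranked 8 and 2 on the X with scores of 2.48 and 2.34. The region from 19521872 to 19535162 (13.3 kb, 2.37) ranked 5 and 4 with 2.54 and 2.22.

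The other 6 were called as a single region in each replicate too. They lay from 9569992 to 9580508 (2.31), 6761844 to 6769388 (2.29), 17547484 to 17562474 (2.23), 1370404 to 1378090 (2.20), 10358180 to 10371014 (2.20) and 16490060 to 16501046 (2.12). Each was covered to at least 91.6% in replicate 1 and 94.1% in replicate 2, and none ranked below 14 on the X in either replicate. By position 4 of the 10 lay in the distal, 2 in the middle and 4 in the proximal part. Apart from the 1001 bp region their widths ran from 4.21 to 15.0 kb, so none of the 10 was among the 5 widest.

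The 5 widest X regions lay in the distal and middle parts. The widest ran from 1468346 to 1523032 (54.7 kb, score 2.11) within the densest block, and both replicates called it in 2 pieces. The larger piece, from 1494279 to 1523010 in replicate 1, had the highest score of all X regions of that replicate, 2.62; its counterpart in replicate 2 scored 2.34 and ranked 3 on the X. The region from 11386696 to 11429914 (43.2 kb) was unlike it in score. It had 1.31 in the series-wide list, and its widest pieces ranked 303 on the X of replicate 1 and 252 on that of replicate 2.

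The other 3 ran from 2527304 to 2567956 (40.7 kb, score 1.99), from 12603830 to 12644320 (40.5 kb, 2.05) and from 1757072 to 1796560 (39.5 kb, 1.77). Regions of replicate 1 covered at least 95.4% of each of the 5, and those of replicate 2 at least 96.5%. Of all 40 X regions of 20 kb or more, 15 were single regions in replicate 1, 19 in replicate 2 and 9 in both. Their median coverage was 96.7% in replicate 1 and 97.2% in replicate 2, and the lowest 72.8 and 65.7%.

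Set beside the large autosomal arms, the X had a covered share within their range, with shorter median gaps and less length in wide regions. Its covered share, 23.8% in replicate 1 and 22.9% in replicate 2, lay within the range of 2L, 2R, 3L and 3R, which was 22.3 to 27.4% and 21.7 to 26.4%. Its regions lay closer together by the median gap. In regions per Mb it was below 2R alone, with 43.2 in replicate 1 and 39.6 in replicate 2 against 47.8 and 44.0. The median gap on X was 3101 bp in replicate 1 and 3836 bp in replicate 2, against 3420 to 3938 bp and 4089 to 4763 bp on the autosomal arms. The X also held less of its covered length in regions of 20 kb or more, 12.9% in replicate 1 and 14.2% in replicate 2, against 17.4 to 19.5% and 18.1 to 21.3%. In median gap and in the share held by these wide regions, the X lay outside the range of the 4 autosomal arms in each replicate. The difference was not tested. In the series-wide list the X again had the shortest median gap, 2625 bp against 3129 bp on 2R, the next shortest. Its wide share there was close to that of 2R, 18.5 against 18.8%. With regions closer than 500 bp merged, the X kept the shortest median gap (4931 and 5691 bp) and the lowest wide share (19.9 and 22.0%), but the autosomal arm nearest to it came close, 2R with 5135 and 5732 bp and with 22.9 and 23.3%.

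**Figure D5:**
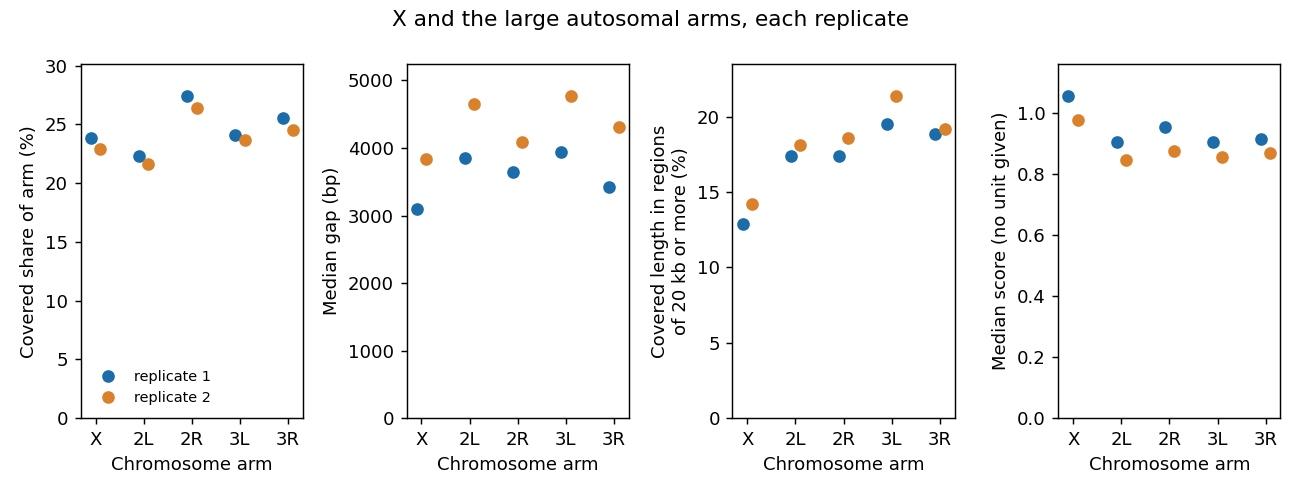
Covered share of the arm, median gap, share of the covered length in regions of 20 kb or more, and median score (no unit given) on X and on 2L, 2R, 3L and 3R, 1 point for each replicate, all axes from 0. The X lies within the autosomal range in covered share, and in each replicate below it in median gap and wide share and above it in median score.

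The median score on X was 1.05 in replicate 1 and 0.978 in replicate 2, against 0.904 to 0.953 and 0.845 to 0.877 on the autosomal arms. By width, the gap was seen in the narrower classes. From 2 to 5 kb the X median was 0.916 in replicate 1 and 0.853 in replicate 2, against 0.817 to 0.859 and 0.728 to 0.758 over the arms. Under 2 kb it was 0.542 and 0.491, against 0.436 to 0.469 and 0.421 to 0.440. From 5 to 10 kb it was 1.42 and 1.25, against 1.27 to 1.38 and 1.16 to 1.24. From 10 to 20 kb it was 1.58 and 1.38, within the range of the arms, 1.49 to 1.62 and 1.35 to 1.46. At 20 kb or more the replicates did not give the same picture, with 1.85 against 1.63 to 1.78 in replicate 1 and 1.58 against 1.50 to 1.62 in replicate 2.

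A lower covered share toward the centromere was not limited to the X. Proximal minus the mean of the other parts was -2.90 and -2.82 percentage points on X, against -9.90 and -9.54 on 2L, -5.13 and -4.94 on 2R and -3.12 and -3.08 on 3L, in replicates 1 and 2. On 3R it was near 0, at -0.0241 and 0.0106. The X value thus lay between those of 3R and 3L. Regions of 20 kb or more in the proximal part numbered 4 and 5 on X and 2 and 3 on 2L. They numbered 11 and 11 on 2R, 16 and 15 on 3L, and 16 and 15 on 3R. On 2R, 3L and 3R the proximal part did not hold the fewest wide regions of its arm in either replicate.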

How the data were processed

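Per the submitters' processing notes, Bowtie 0.12.7 was used; the region caller, its threshold, the use of input and the way replicates were combined are steps not given in the sources used here. The deposited values are start and end positions, 1-based on FlyBase release 5 per the file headers, and a score with no stated unit that the authors deposited for each region. Regions on X were set against replicate regions by an overlap of at least 1 bp. Joined regions were used for covered length, gaps are the bases between neighbouring regions, and a region belongs to the part of the arm that holds its midpoint. The distal end is base 1 on X, 2L and 3L and the last base on 2R and 3R. The members, lists and measures were chosen with earlier results of these data known. Regions named are the 10 highest scores, the 5 widest, the 5 longest gaps and the most isolated region of each part; groups of regions under 5 kb apart, classes of crowding, the division at 20 Mb, the parts of autosomal arms and the merged comparison were chosen after the data were seen. Annotation at hand is on release 6, so no gene is named. Interval code was tested on 20 simulated pairs of lists and equalled a base-by-base count in 20. Calculations used pandas 2.3.3 and numpy 2.4.6 under Python 3.11.15, with scipy 1.17.1 for intervals and matplotlib 3.10.9 for plots.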

Additional observations from a re-analysis of the deposited data

How the results depend on the processing

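No paired analysis was possible because no values of the input libraries were analysed, which leaves 1 group of 2 libraries. Of 30 alternative values other than those that leave out a replicate, 7 stayed within the replicate SD or the counting interval, 22 moved beyond it and 1 changed sign. An SD of 2 values is a weak yardstick, and some of the moves were set by the setting. Keeping the top 50% of regions can only lower a covered share. Dropping gaps under 500 bp can only raise the median gap, and regions per Mb is another measure than covered share. Leaving out 1 of 2 replicates gives the value of the other, which by construction lies within 1 SD of their mean and so says nothing about stability. With the top 50% of each list by score, the covered share was 18.5% on X, 19.5, 19.5 and 16.4% in the distal, middle and proximal parts, with a proximal difference of -3.13 percentage points, and the ratio of covered shares, X over autosomes, was 0.996. In the series-wide list these were 26.7%, 27.2, 28.2 and 24.6%, and -3.12; X over autosomes was 0.761 for the median gap and the wide share was -3.74 percentage points from the autosomal mean. Merging regions closer than 500 bp gave a median width of 4430 bp, a median gap of 5311 bp, a gap ratio of 0.893 and a wide-share difference of -4.38. Parts of 5 Mb at each end gave 25.2% distal and 17.4% proximal, a difference of -7.67. Leaving out the part beyond 20 Mb gave 2.87, the sign change. That cut was placed after the profile was seen and took away only sparsely covered proximal sequence, so the rise was also set by the setting. Counted as regions per Mb, X over autosomes was 1.02 in place of 0.955. Among the 542 X regions in the top 50% of the series-wide list, 99.3% met both replicates, against 74.3% of all X regions. The matching share over all sequences is not given here. Depth is unknown, so no value could be weighted by it.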

Other observations

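The XHet scaffold, heterochromatic sequence assigned to the X but kept apart from the arm in this release, held a few regions, which counted above only among the regions of all sequences. Replicate 1 listed 3, from 60033 to 63099 (score 0.814), 75817 to 78439 (0.817) and 84602 to 86136 (0.345). Replicate 2 listed 2, from 60765 to 63060 (0.751) and 75867 to 78329 (0.593). The series-wide list held all 3 positions, with scores of 0.701, 0.655 and 0.168. Each replicate score lay below the median of that replicate on the X arm (1.05 and 0.978). Each also lay below the X median of its own width class in that replicate. In the series-wide list, though, the score of 0.701 was just above the X median of 0.694 from 2 to 5 kb.

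Among the series-wide X regions, 2 scored below 0.1, and the lowest value was 0.00113, in a region that met replicate 1 alone.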
